A study of Mus musculus with 12 samples.

Results

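Cytosolic ribosomal proteins are the protein part of the ribosome outside mitochondria. Their genes were taken as the protein-coding genes named Rpl, Rps, Rplp or Rpsa by a fixed pattern of symbols, with a mean CPM (counts scaled to a fixed library total) of 1 or more. The pattern matched 82 genes, and 80 of them passed that level, among 13369 protein-coding genes at the same level and 35583 genes with a listed transcript. Of the 80, 49 encode proteins of the large subunit (Rpl and Rplp) and 31 proteins of the small subunit (Rps and Rpsa) by name. The tissue was dorsal root ganglion (DRG), which holds the cell bodies of sensory neurons. RNA came from WT mice and from YAC Q84 mice, which carry a yeast artificial chromosome with human ATXN3 holding an expanded CAG repeat and serve as a model of spinocerebellar ataxia type 3. All mice were 24 weeks old, and the labels name no treatment. The libraries were 3 of WT males, 3 of WT females, 1 of a Q84 male and 5 of Q84 females. The labels do not say whether each library is a separate mouse or a pool, so p-values measure the spread between these libraries, which may in part be technical.

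Each ribosome carries a set copy number of nearly every ribosomal protein, and cells coordinate the amounts of these proteins. Many of their mRNAs begin with a terminal oligopyrimidine (TOP) tract, a run of C and T at the start of the transcript through which mTOR signalling controls translation. A few members have paralogs with narrower expression, such as Rpl3l in striated muscle and Rpl10l in testis, and Rpl22 is known to hold down the RNA of its paralog Rpl22l1.

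The start regions of 60 of the 80 genes were matched by symbol in a RefSeq table of promoters (build GRCm38.p6). A run of 6 or more bases that were each C or T, touching the 10 bases around the annotated start, was present at 32 of 72 member starts, or 44.4%, against 20.2% of all 32851 starts in the table. The same search for runs of A and G, which are C and T runs on the other strand, found 8.33% of member starts and 21.8% of all starts. A match describes these letters and is not a shown site. The 40 bases around the start (20 before and 20 after) are given for the genes on which the results below turn and for Rpl7a, which had the longest run at 21 bases. All of them lie on the plus strand, and capitals mark the run of C and T where it reached 6 bases.
Rpl7a chr2:26910787-26910826: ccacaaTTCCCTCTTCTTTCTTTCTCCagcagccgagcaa
Rpl28 chr7:4792945-4792984: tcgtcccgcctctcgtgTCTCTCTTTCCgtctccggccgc
Rpl22l1 chr3:28805488-28805527: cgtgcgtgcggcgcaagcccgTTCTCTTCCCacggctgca
Rpl22 chr4:152325706-152325745: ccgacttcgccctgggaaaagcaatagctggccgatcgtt
Rps24 chr14:24490658-24490697: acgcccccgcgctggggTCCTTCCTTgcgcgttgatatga
Rpl3l chr17:24727806-24727845: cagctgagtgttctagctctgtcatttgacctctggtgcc
Rpl28, Rpl22l1 and Rps24 held runs of 11, 10 and 9 bases. The longest run that touched the 10 bases around the start was 1 base at Rpl22 and 4 bases at Rpl3l.

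Alternative ends of Rps24 are also shown, because the share of its transcripts is a result below. The transcript Rps24-205 has an 18-base exon (GRCm38 chr14:24494052-24494069, plus strand) that Rps24-202 skips, in front of its last exon, and this exon is known to vary between tissues and to alter the very end of the protein. The sequences start 12 bases before the place of that exon, and capitals mark the exon.
Rps24-205: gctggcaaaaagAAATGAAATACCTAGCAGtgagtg
Rps24-202: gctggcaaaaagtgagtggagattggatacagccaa
Another protein-coding transcript, Rps24-201, lacks the 18-base exon too, but has 5 exons, against 6 in Rps24-202 and 7 in Rps24-205. Rps24-201 starts 37 bases before Rps24-202 and ends 88 bases short of it, so those stretches are what separates the pair in the counts. Given this earlier end, its lack of the exon need not be a skip as in Rps24-202.

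The libraries held 66490500 to 86891600 estimated counts, and the mean fragment length derived from the files was 213 to 243 bases. All 8 markers of sensory neurons were present at 1 CPM or more on average and summed to 4343 to 5659 CPM in WT and 3668 to 4742 CPM in Q84 libraries, with 5 of the 6 Q84 libraries below every WT library. A 1000-base Atxn3 transcript checks the genotype labels: it stood at 62.7 to 79.4 TPM in 5 Q84 libraries and at 0 to 0.285 TPM in 5 WT libraries. The library labelled WT female 2 had 34 TPM and the library labelled Q84 female 5 had 0.061 TPM, so both go against their label. Each Q84 comparison is given for all 12 libraries and for the 10 without those.

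Ribosomal protein mRNAs were among the most abundant of the ganglion. Their mean level per gene, in TPM (transcript abundance scaled for length and to a fixed total), ranged from 1.47 for Rpl3l to 2480 for Rplp1, with a median of 625. By this level 69 of the 80 genes were among the 500 highest protein-coding genes, and 14 were over 1000 TPM. The genes took 5.06 to 6.19% of all TPM but 1.63 to 2.20% of counts, since their transcripts are short. By CPM, which is not scaled for length, 18 of the 80 were among the 500 highest genes. The median was 742 TPM for small subunit genes and 523 TPM for large subunit genes.

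At the top stood Rplp1, a protein of the acidic stalk that binds elongation factors, with 2480 ± 230 TPM (SD, n = 12). It was followed by Rpl41, the smallest protein of the large subunit, with 1884 ± 205 TPM. Rps14 had 1873 ± 235 TPM, Rpl13a 1524 ± 188 TPM, Rps21 1467 ± 151 TPM and Rps24 1416 ± 144 TPM. Rpl41 and Rps14, and Rpl13a, Rps21 and Rps24, differ by less than these SDs. The partners of Rplp1 in the stalk were lower: Rplp2 had 449 ± 42.1 TPM and Rplp0, the base of the stalk, 483 ± 27.5 TPM. Rpsa, the small subunit protein also known as the laminin receptor, had 460 ± 28.9 TPM.

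The lowest of the 80 were Rpl3l with 1.47 ± 2.01 TPM and Rpl7l1 with 40.6 ± 5.21 TPM, both paralogs. Then came Rps23 (203 ± 18.7 TPM), Rpl27a (203 ± 12.4 TPM), Rpl5 (206 ± 24.6 TPM) and Rpl12 (229 ± 17.3 TPM), followed by Rpl28 with 245 ± 23.6 TPM. The values from Rps23 to Rpl28 lie within about their spreads of their neighbours in this order. Apart from both paralogs at the bottom, all 78 other genes were over 200 TPM.

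The order near the bottom rests on how reads were divided between a gene and its processed copies. Mouse transcripts of 1120 pseudogenes or retrocopies matched a member at 90% identity or more over 50% or more of their length, and 19 of the 80 genes had more than 10% of the joint reads placed on such copies. For Rpl5 the share on copies was 65.6%, most of it on Gm15500, and for Rps23 it was 61.4%. It was 53.3% for Rpl10a, 52.8% for Rpl27, 48.4% for Rpl27a and 28.3% for Rpl28. The X-linked Rpl10 had 257 CPM and its copy Rpl10-ps3, which is 100% identical over the aligned part and annotated as protein coding, had 275 CPM. Of the 10 lowest genes, 7 had over 10% of reads on copies, and with copies added the median of the 80 was 767 TPM. Levels of these genes are therefore uncertain, and the reads do not say which locus was transcribed.

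**Figure D1:**
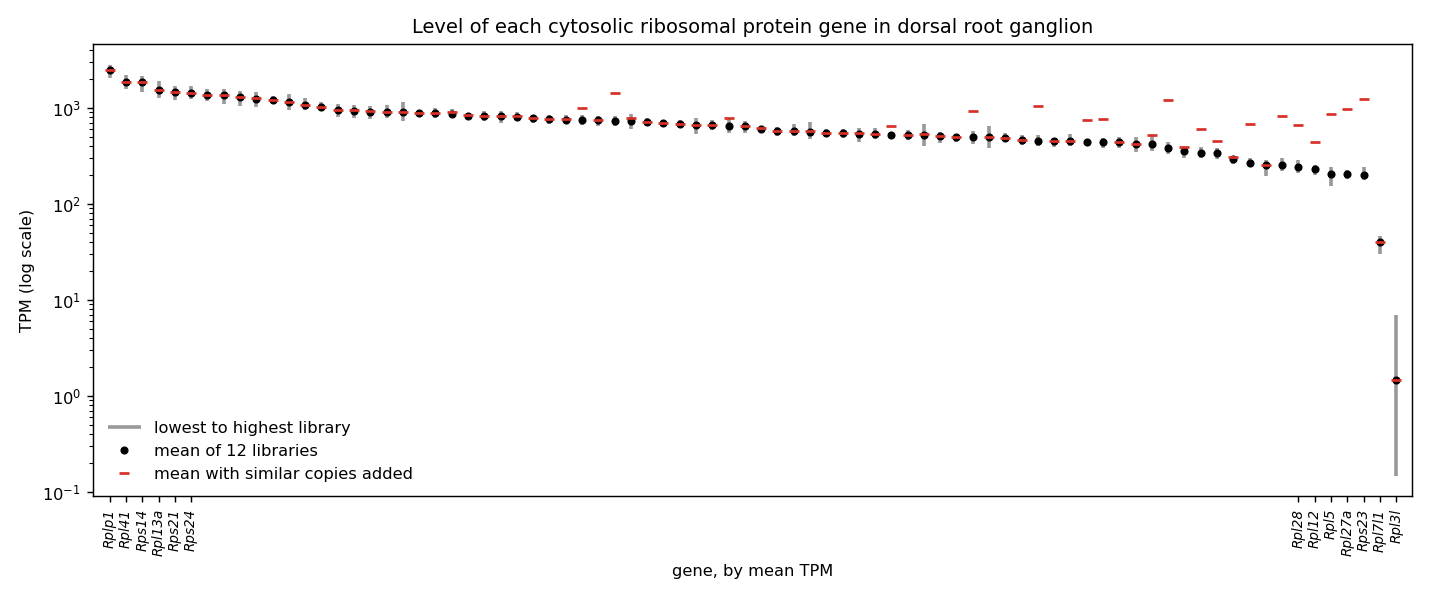
Mean TPM (log axis) of the 80 genes over 12 libraries (dots, in order of level, with names at both ends of the order), the range from the lowest to the highest library (grey bars), and the mean with similar copies added (red dashes). Rplp1 is highest at 2480 TPM, 78 genes lie over 200 TPM, and the red dashes lie far above the dots mainly among the lower genes, such as Rpl5 and Rps23.

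Genes outside the symbol pattern that encode other cytosolic ribosomal proteins were at like levels. Rps3a1 had 846 ± 73.9 TPM and Rpl36al, a paralog of Rpl36a, 397 ± 27.3 TPM (SD, n = 12). Fau, which encodes a ribosomal protein fused to a ubiquitin-like part, had 740 ± 42.6 TPM. Rack1, the scaffold on the small subunit, had 285 ± 20.6 TPM.

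Among the paralogs, Rpl22l1 was the abundant one: at 495 ± 93.2 TPM it stood near its parent Rpl22 with 438 ± 37.5 TPM. Rps27l had 254 ± 28.5 TPM against 1358 ± 159 TPM for Rps27. Rpl7l1, whose product is known from ribosome assembly, had 40.6 ± 5.21 TPM against 710 ± 49.2 TPM for Rpl7, and Rpl3l had 1.47 ± 2.01 TPM against 834 ± 34.8 TPM for Rpl3. Below the level of 1 CPM were Rpl39l, the paralog of Rpl39 known from testis, and Rpl10l. Rpl39l had 0 to 26 estimated counts per library. Rpl10l had 0 counts in every library, where a count of 0 allows up to 3 counts, or 0.0348 to 0.0455 CPM, for counting error only.

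Rpl3l, the striated muscle paralog of Rpl3, varied most of all members. In WT males it had 1.70, 0.106 and 0.195 CPM and in WT females 0.349, 1.94 and 0.260 CPM. The Q84 male had 5.38 CPM and the Q84 females 2.62, 0.195, 0.219, 0.344 and 0.645 CPM. Most libraries thus lay below 1 CPM. Rpl3l passed the level of 1 CPM on average only through its high libraries, the Q84 male in particular. The 4 libraries at 1.70 CPM or more (WT male 1, WT female 2, Q84 male 1 and Q84 female 1) were also the 4 highest in 10 skeletal muscle markers, with summed levels of 610, 797, 1629 and 1049 CPM. The other libraries had 131 to 391 CPM of these markers. In some of them most of the sum was 1 marker, Pvalb, with 111 of 131 CPM in WT female 3 and 151 of 156 CPM in Q84 female 2. Pvalb held 170 of 391 CPM in Q84 female 5 and 296 of 1629 CPM in the Q84 male. All 10 markers were at 1 CPM or more on average, and Ckm, the muscle creatine kinase, reached 141 CPM in the Q84 male and was 0.625 CPM in Q84 female 2. The part of muscle RNA in the level of Rpl3l was not tested.

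Most reads of the 80 genes fell on transcripts annotated as protein coding, 93.7 to 94.6% of their counts per library. Transcripts marked for nonsense-mediated decay held 1.79 to 2.17% and retained introns 1.89 to 2.34%. The median gene had 99.1% on protein-coding transcripts, and 9 genes had under 80%. For Rpsa 44.4% of counts were placed on a transcript marked for decay (range over libraries 41.3 to 49.2%). In Rpl13a, whose transcripts also host small nucleolar RNAs, this share was 9.97%. For Rpsa the share was 45.2 ± 2.5% in WT and 43.6 ± 1.51% in Q84 libraries (SD, n = 6 each), a difference smaller than the SD in WT.

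The genes moved together from library to library. With Rpl3l left aside, 75.2% of the variation of log2 CPM of 79 members over the 12 libraries lay in a shift common to all of them, against 1.24% for the other 13289 protein-coding genes at 1 CPM or more. The scaling holds the second value near 0 by its construction. In WT male 2 and WT female 2, 0 of the 79 genes lay above their own mean over libraries, and in Q84 male 1, the lowest library by its median, it was 1 of 79. In the highest library, Q84 female 3, it was 78 of 79, and in WT female 1 it was 72.

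In WT males the median deviation of the members from their own mean was 0.09, -0.22 and -0.11 on the log2 scale. In WT females it was 0.12, -0.20 and -0.01. The Q84 male stood at -0.23, and the Q84 females at 0.01, 0.11, 0.29, 0.10 and 0.09. The groups overlapped: Q84 libraries lay at both ends, the male lowest and female 3 highest, and the WT libraries lay between them. Mitochondrially encoded genes took 6.85 to 9.55% of counts in WT and 8.91 to 11.9% in Q84 libraries, and red blood cell markers summed to 175 to 1046 CPM in WT and 278 to 1852 CPM in Q84 libraries. The sensory neuron markers, given above, were lower in most Q84 libraries. The part of these measures in the shift, and in each Q84 comparison below, was not tested. In bulk RNA, fewer cells of a type and less RNA per cell cannot be told apart.

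**Figure D2:**
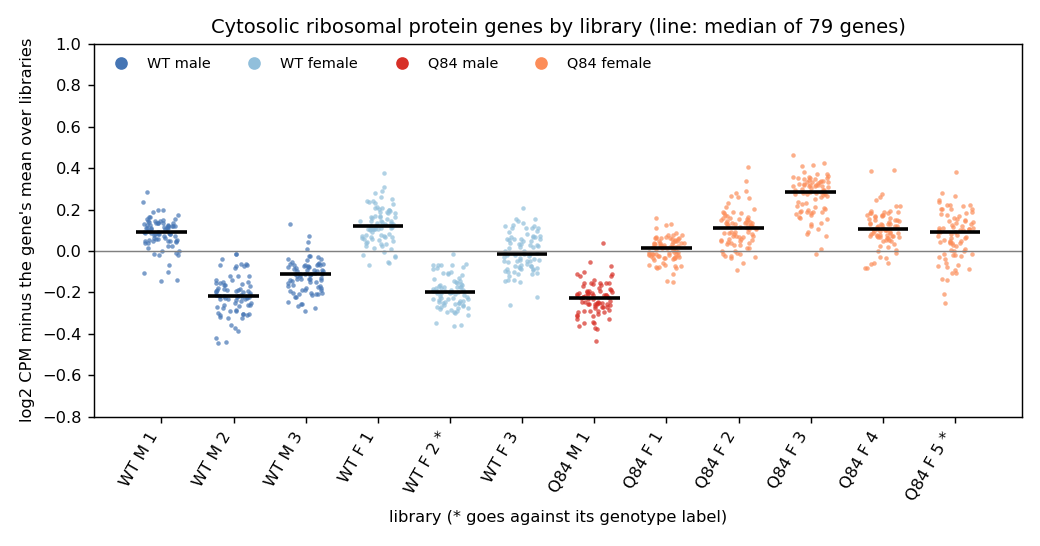
Log2 CPM of 79 genes (Rpl3l left out) minus each gene's mean over the 12 libraries, by library; points are genes, black lines medians and colours the 4 groups. The points move as a block, from a median of -0.23 in Q84 male 1 to 0.29 in Q84 female 3, and asterisks mark the libraries that go against their genotype label.

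Within groups of libraries the median spread of the members was below that of all protein-coding genes, a set not matched to them in level. The SD of log2 CPM within groups had a median of 0.15 over the 80 genes and 0.19 over all protein-coding genes at 1 CPM or more. Rpl3l had 0.94, followed by Rps29 (0.23), Rps14 (0.22), Rps12 (0.21) and Rpl41 (0.21). For Rps29, a zinc-finger protein of the small subunit, the lowest library was WT female 2 with 114 CPM and the highest WT female 1 with 191 CPM, both of the same group.

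The comparison of Q84 with WT asks what the expanded ATXN3 transgene changes in the ganglion. Over all 12 libraries, with sex in the model, no cytosolic ribosomal protein gene passed an adjusted p of 0.05 (edgeR's quasi-likelihood test, Benjamini-Hochberg over 18875 genes), and 0.0053% of all genes did. DESeq2 and limma-voom also called 0 members. At an unadjusted p under 0.05, 1 member was higher and 0 were lower, while 5.72% of all genes were higher and 8.56% lower at that level. Of the 80 genes 61 were higher in Q84, with a median log2 difference of 0.06 against 0.01 for all genes tested. The member median turned to -0.01 (34 of 80 higher) without WT female 2 and was 0.14 (72 higher) without the Q84 male.

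The member at unadjusted p was Rpl22l1. In WT males it had 100, 82.7 and 104 CPM and in WT females 106, 93.3 and 92.4 CPM. The Q84 females had 117, 146, 153, 145 and 129 CPM, and the Q84 male 87.2 CPM. All 5 Q84 females lay above all 6 WT libraries, and the Q84 male lay within the WT range. The log2 difference was 0.33 ± 0.12 (SE) with an adjusted p of 0.241 by edgeR, and the adjusted p ranged from 0.149 to 0.571 over the alternatives. Its parent Rpl22 had 213 to 244 CPM in WT males and 201 to 236 CPM in WT females. In Q84, Rpl22 had 201 CPM in the male and 207 to 271 CPM in females. These ranges overlapped, although the highest Q84 female lay above all WT libraries.

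The next members by p on the higher side were Rpl39 (log2 difference 0.26) and Rpl17 (0.19), which line the exit tunnel of the large subunit, with adjusted p of 0.368 and 0.464 (edgeR). On the lower side they were Rpl28 (-0.16), Rpl7l1 (-0.09), Rpl29 (-0.07) and Rps9 (-0.09), with adjusted p of 0.397 to 0.721 (edgeR). Rps27l differed by 0.08 and Rpl3l by 0.95 ± 0.98 (SE), the latter with muscle markers that moved with it as given above. Without the Q84 male, through which Rpl3l passed the level of 1 CPM, its difference was -0.08.

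Without both libraries that go against their label, 1 of the 80 genes passed, Rpl28, a protein of the large subunit, which was lower in Q84. In this comparison of 10 libraries 4.93% of all 18721 genes were called lower, and 12.2% were lower at an unadjusted p under 0.05, where again 1 member stood. Rpl28 was thus called in a setting where many genes were, and 1 of 80 is below that background. The members divided into 36 higher and 44 lower in Q84, with a median of -0.01 against 0.01 for all genes.

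For Rpl28 the WT males had 165, 150 and 153 CPM and the remaining WT females 178 and 175 CPM. The Q84 male had 129 CPM and the remaining Q84 females 154, 142, 150 and 148 CPM. The ranges touch, since WT male 2 and WT male 3 lie within the Q84 range. The log2 difference was -0.26 ± 0.06 (SE), with an adjusted p of 0.0267 by edgeR. The libraries left out were WT female 2 with 132 CPM and Q84 female 5 with 152 CPM, and with them the difference was -0.16 (adjusted p 0.397, edgeR).

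The call on Rpl28 was lost without WT male 2, WT male 3, WT female 1, WT female 3, the Q84 male or Q84 female 2, 3 or 4, with adjusted p of 0.0567 to 0.132 (edgeR), while the difference stayed between -0.27 and -0.24. With its 4 copies, Rpl28-ps1 among them, added to the gene the difference was -0.25 (adjusted p 0.0266, edgeR). Its main transcript Rpl28-201 had 242 ± 19.7 TPM in WT and 215 ± 10.3 TPM in Q84 libraries (SD, n = 6 each).

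The next members by p in the 10 libraries did not pass. They were Rpl22l1 (0.28, adjusted p 0.301), Rpl3l (2.13), Rpl5 (0.20) and Rps4x (0.13) on the higher side and Rps9 (-0.17), Rpl38 (-0.23) and Rps29 (-0.16) on the lower side (edgeR). Rpl7l1 differed by -0.07 and Rps27l by -0.03. The value of Rpl3l is that of a gene which passed the level of 1 CPM only through its high libraries, as given above.

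Rpl5, a partner of the 5S RNA in the large subunit, depended on which of its transcripts were counted. Its coding transcript Rpl5-201 had 76.8, 72.6 and 66 TPM in WT males and 67.3, 80.7 and 62.5 TPM in WT females. The Q84 male had 89.5 TPM and the Q84 females 91.7, 106.8, 103.1, 98.1 and 73.9 TPM. The 5 Q84 libraries with the Atxn3 transcript lay above all WT libraries, WT female 2 was the highest of WT, and Q84 female 5 lay within the WT range. With protein-coding transcripts only, Rpl5 was higher in Q84 over 10 libraries by 0.53 ± 0.12 (SE, log2), with an adjusted p of 0.0253 by edgeR. The share of all genes called with this way of counting is not given here.

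The intron-retaining transcript Rpl5-202 went the other way, with 133 ± 21.6 TPM in WT and 103 ± 19.3 TPM in Q84 libraries (SD, n = 6 each). Its WT values were 161.1, 122.4 and 116.3 TPM in males and 143.1, 106.3 and 151.5 TPM in females. In Q84 they were 97.2 TPM in the male and 118.6, 113.8, 125.5, 90.6 and 74.6 TPM in females, and the groups overlapped. The summed gene differed by 0.20 with an adjusted p of 0.373 (edgeR), by -0.02 with length-scaled TPM, and by 0.11 (adjusted p 0.664, edgeR) with all similar copies added. Since Gm15500 takes reads of Rpl5, these shares are uncertain.

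Within females, 3 WT and 5 Q84 libraries, 0 of the 80 genes passed, and 0% of 17244 genes did (edgeR). DESeq2 called 2, Rpl22l1 and Rpl17, and limma-voom 0. The share of all genes that DESeq2 called is not given here. At an unadjusted p under 0.05, 19 members were higher and 0 lower, while 4.19% of all genes were higher and 6.4% lower at that level. Higher in Q84 were 72 of the 80, with a median of 0.14 against 0.00 for all genes. Without WT female 2 the median was 0.07, with 5 members higher and 1 lower at unadjusted p. Without both libraries that go against their label it was 0.09, with 9 higher and 1 lower. The count of members higher at unadjusted p was 32 without WT female 1, 11 without WT female 3 or Q84 female 2, and 13 without Q84 female 3. It thus turned on single libraries, and the shares of all genes in the fits with libraries left out are not given here.

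Rpl22l1 had the smallest p, with a log2 difference of 0.50 ± 0.10 (SE) and an adjusted p of 0.339 by edgeR. It passed with DESeq2 (adjusted p 0.00629), and with edgeR without Q84 female 5 (0.0118) or without both doubted libraries (0.0250). Rpl17 had 217, 192 and 205 CPM in WT females and 253, 276, 273, 240 and 244 CPM in Q84 females. These ranges do not overlap, and the log2 difference was 0.33 ± 0.08 (SE), adjusted p 0.355 by edgeR and 0.0346 by DESeq2. The WT male 1 library, at 258 CPM, lay within the range of the Q84 females.

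Rpl24 (0.26) and Rpl39 (0.40) followed on the higher side, both with an adjusted p of 0.393 (edgeR). On the lower side stood Rpl7l1 (-0.13), Rpl28 (-0.11), Rps2 (-0.05) and Rplp0 (-0.04), with adjusted p of 0.594 to 0.873 (edgeR). Only 1 Q84 male was available, so whether the difference in males departs from that in females was not tested.

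**Figure D3:**
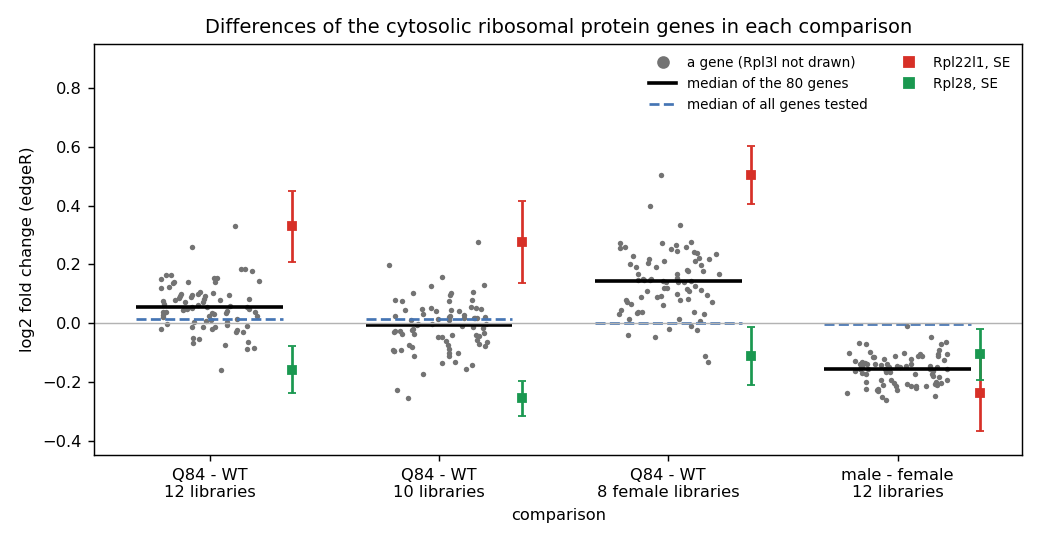
Log2 fold change of each gene by edgeR (grey points, Rpl3l not drawn) in 4 comparisons, with the median of the 80 genes (black line), the median of all genes tested (dashed blue line), and Rpl22l1 and Rpl28 with their SE (squares). The black line lies at 0.06, -0.01, 0.14 and -0.16 from left to right, and Rpl28 in the 10 libraries is the only point called.

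The comparison of males with females, with genotype in the model, gave lower values in males for 79 of the 80 genes. Rpl3l was the exception at 1.08, and its difference was -0.36 without the Q84 male. The median log2 difference was -0.16 against 0.00 for all genes. Even so 0 members passed (edgeR), where 0.0636% of all genes did, and DESeq2 and limma-voom called 0. At an unadjusted p under 0.05, 4 members were lower, against 1.74% of all genes. Those were Rpl18 (-0.21), Rplp2 (-0.21), Rps19 (-0.21) and Rpsa (-0.17), with adjusted p of 1 (edgeR). Without the Q84 male the median was -0.06 with 67 genes lower and 0 members lower at that unadjusted p. Without WT male 1, 56 members were lower at that unadjusted p, and without WT female 2 it was 40. The count thus turned on single libraries, and the shares of all genes in these fits are not given here.

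X-linked members are Rps4x, Rpl10, Rpl36a and Rpl39. Rps4x, known in humans as a gene that escapes X inactivation, differed by -0.12 ± 0.11 (SE, log2, male minus female). Rpl10, which joins the large subunit late in its assembly, differed by -0.15, Rpl36a by -0.23 and Rpl39 by -0.22. Over the 80 genes the median was -0.16, the lower quartile -0.20 and the minimum -0.26, so Rps4x and Rpl10 lay near the median and Rpl36a and Rpl39 between the lower quartile and the minimum. Unadjusted p of the 4 genes ran from 0.0590 to 0.261 with adjusted p of 1 (edgeR).

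**Figure D4:**
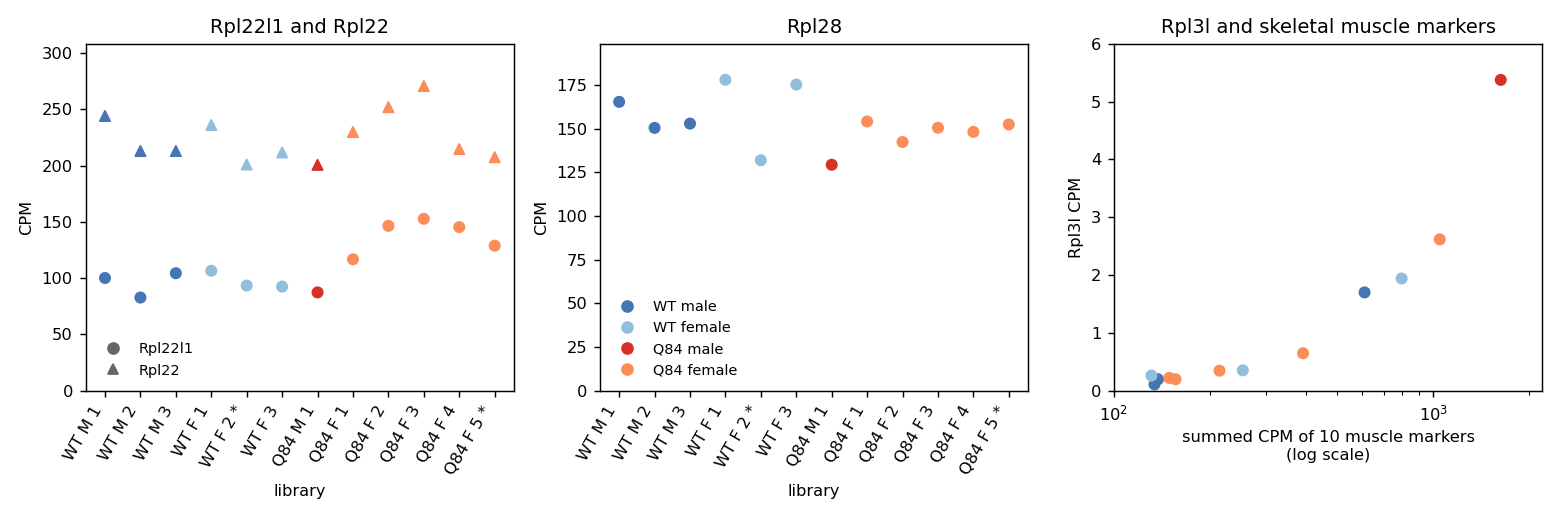
CPM of Rpl22l1 (circles) and Rpl22 (triangles) and of Rpl28 by library, and Rpl3l CPM against the summed CPM of 10 skeletal muscle markers (log axis); colours are the 4 groups and asterisks mark the libraries that go against their label. The 5 Q84 females lie at 117 to 153 CPM for Rpl22l1, above WT, and Rpl3l is highest where the muscle markers are.

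In Rps24, which encodes a small subunit protein, Q84 libraries held a smaller share of the transcript Rps24-201 and a larger share of Rps24-202. As a percentage of the TPM of its protein-coding transcripts, Rps24-201 was 17.8, 16.1 and 18% in WT males and 18.5, 12 and 21.6% in WT females. It was 10.7% in the Q84 male and 11.1, 11, 12.7, 10.7 and 9.61% in Q84 females. The groups touch at WT female 2 alone, with 12%. Q84 female 5, which lacks the Atxn3 transcript, had the lowest value.

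The means were 17.3 ± 3.16% in WT and 11 ± 0.996% in Q84 (SD, n = 6 each), a difference of -6.33 percentage points with p = 0.00433 (2-sided exact permutation test; 0.0238 adjusted over 12 tests). Over 10 libraries the difference was -7.12 points, with p = 0.00794, the smallest that 5 against 5 libraries can give (exact permutation test), and 0.0238 adjusted. Among females it was -6.30 points, p = 0.0357 (exact permutation test, adjusted 0.0714). Between males and females it was 2.24 points, p = 0.370 (exact permutation test, adjusted 0.444).

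Rps24-202 had 36.4, 33.7 and 28.2% in WT males and 36.5, 37.7 and 32.3% in WT females. The Q84 male had 39.7% and the Q84 females 40.4, 39.7, 39.5, 38.6 and 40.1%. All 6 Q84 libraries lay above all 6 WT libraries. The difference was 5.55 points over 12 libraries, with p = 0.00216, the smallest that 6 against 6 can give (exact permutation test), and 0.0238 adjusted. It was 6.17 points over 10 libraries (p = 0.00794, exact permutation test, adjusted 0.0238) and 4.18 points among females (p = 0.0179, exact permutation test, adjusted 0.0429). Between males and females it was -3.63 points (p = 0.115, exact permutation test, adjusted 0.197). The permutation tests over 12 and 10 libraries did not account for sex, although males make up a larger part of the WT libraries.

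The transcript with the 18-base exon, Rps24-205, did not pass: it held 47.7 ± 3.48% in WT and 48.5 ± 1.06% in Q84 (SD, n = 6 each, p = 0.628, exact permutation test). Its difference was 0.90 points over 10 libraries (p = 0.627, exact permutation test). Among females it was 2.16 points (p = 0.179, exact permutation test). A share that does not pass is not shown to be unchanged. The transcripts that passed over 12 and 10 libraries were both without that exon, and the files separate them by 37 bases at the start and 88 at the end. The total of Rps24 differed by 0.08 (log2) in the fit of all 12 libraries.

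The mean fragment length was 228 ± 12 bases in WT and 238 ± 4.15 bases in Q84 libraries (SD, n = 6 each), and WT female 2 had the longest fragments at 243 bases. The 3 WT libraries with the shortest fragments (213 to 224 bases) had the highest shares of Rps24-201, at 18 to 21.6%. The other 3 WT libraries (232 to 243 bases) had 12 to 17.8%, and the Q84 libraries, also at 232 to 243 bases, had 9.61 to 12.7%. WT female 2 and the Q84 male, both at 243 bases, had 12 and 10.7%. Sensory neuron markers were lower in most Q84 libraries as well. The part of fragment length and of cell makeup in the difference was not tested.

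**Figure D5:**
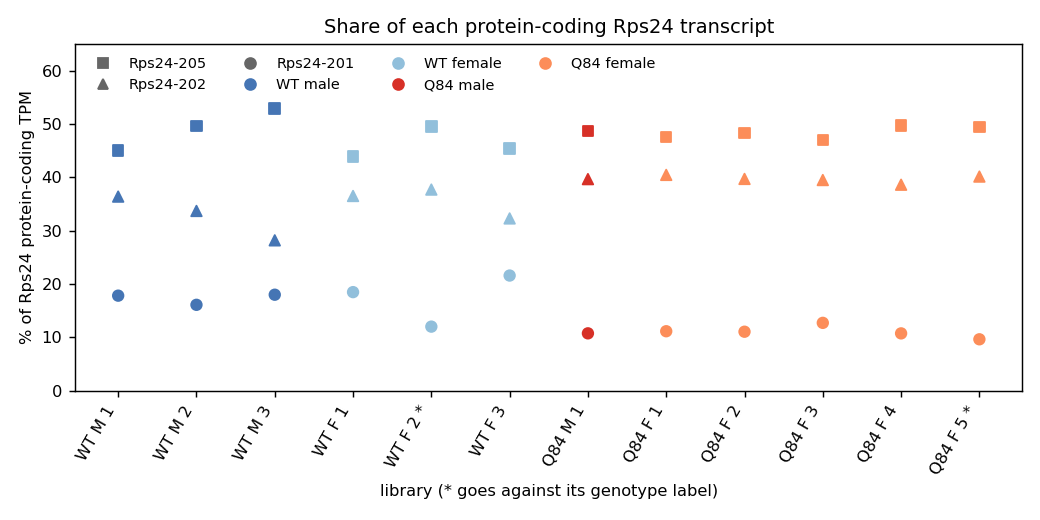
Share of 3 protein-coding transcripts in the protein-coding TPM of Rps24, by library; marker shapes are transcripts, colours the 4 groups and asterisks the libraries that go against their label. Rps24-201 lies at 9.61 to 12.7% in Q84 and 12 to 21.6% in WT libraries, Rps24-202 is higher in all 6 Q84 libraries, and Rps24-205 overlaps.

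Other genes of ribosome production and control were read from lists. Of 32 ribosome biogenesis genes 0 passed in any of the 4 comparisons (edgeR), and 11 were higher and 21 lower in Q84 over 12 libraries, with a median of -0.04 against 0.01 for all genes. The smallest p among them over 12 libraries were of Eif6 (-0.21), which keeps the subunits apart, and Rsl1d1 (0.18). Of 22 TOP mRNAs that do not encode ribosomal proteins, such as translation factors, 0 passed in the Q84 comparisons, with 13 higher, 9 lower and a median of 0.03 over 12 libraries, where Npm1 (0.19) and the poly(A)-binding protein Pabpc1 (0.27) had the smallest p. In the comparison of sexes, Eif2s3x, an initiation factor gene on the X chromosome known to escape inactivation in mice, passed and was lower in males by 0.74 (log2 difference -0.74, adjusted p 0.00618, edgeR). The 17 genes of mTOR and Myc control had 0 calls in each comparison (edgeR), as had the 13 tested of ribosome quality control and the 12 tested of snoRNA hosts and ribosome chaperones. The smallest p of these lists over 12 libraries were of Mlst8 (-0.16) and Mycl (-0.35), Edf1 (-0.25) and Gigyf2 (0.15), and Pdcd2 (-0.12) and Ipo5 (-0.09), with adjusted p of 0.241 to 0.585 (edgeR).

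Of 14 genes of RNA polymerase I, which makes ribosomal RNA, Taf1a passed in the 10 libraries. Taf1a, a subunit of its promoter selectivity factor, was lower in Q84 by a log2 difference of -0.56 ± 0.09 (SE, adjusted p 0.00247, edgeR), and over 12 libraries by -0.47 (adjusted p 0.0954, edgeR). Rrn3, its initiation factor, differed by -0.17 in both, with adjusted p of 0.324 and 0.236 (edgeR). Mitochondrial ribosomal proteins, a separate set of 78 genes, had 52 lower and 26 higher in Q84 over 12 libraries, with a median of -0.02. Among them Mrps6 passed over 10 libraries (-0.31, adjusted p 0.0198, edgeR). These calls are 1 of 14 and 1 of 78 genes in a comparison where 4.93% of all genes were called lower.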

How the data were processed

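Poly(A)-selected RNA of mouse DRG was sequenced, per the labels' protocols. Per the submitters' processing notes, kallisto 0.46.2, STAR 2.7.10b and GRCm39 were used, with no roles given; for the transcript release used, none was named (not given in the sources used here). Deposited tables hold estimated counts, effective lengths and TPM for 116313 transcripts, per the file headers. The authors' estimated counts are unscaled and not whole, and the deposited TPM carry a length correction and sum to the same total in each library.

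Transcripts were assigned to genes with GENCODE M21 (98.3% matched), and their estimated counts were added up by gene, then rounded. Genes kept by filterByExpr were scaled by TMM and tested with edgeR 4.0.16 (quasi-likelihood, robust; R 4.3.3), Benjamini-Hochberg over all genes, threshold 0.05. DESeq2 1.42.0 and limma-voom (limma 3.58.1), other scalings, filters and counting, a block for the replicate number and leaving out single libraries were alternatives. The Rps24 shares were tested by exact permutation over libraries, without sex in the test. Kallisto divides reads of near-identical transcripts by likelihood, so genes with copies are uncertain. Copies were found with blastn against the protein-coding transcripts of the members. Library pairs of a group differed beyond sampling noise (chi-square per degree of freedom of at least 38). Fits were tested on simulated data with planted changes larger than most member differences given here, so that test does not cover differences of their size. Replicate numbers in the labels did not pair the libraries (see the effect of the processing).

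Genes were named by rule: the 6 highest and 6 lowest, every paralog and its parent, X-linked members, members that passed or the 4 of smallest p in each direction, 5 of largest spread, ribosomal proteins outside the pattern, and in each list those that passed or, over 12 libraries, 2 of smallest p; Rplp0, Rplp2, Rpsa, Rpl10a and the transcripts of Rpl5 were added after their values were seen. The members and lists were chosen with earlier results of these data known. Promoters are from RefSeq. Some genes that the rule names are not reported here.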

Additional observations from a re-analysis of the deposited data

Results flagged for a closer look

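Among 5 Q84 females, the only group large enough for a check of single libraries, 43 values were checked and 3 had a library far from the rest; chance alone gives about 1 in 20. Rpl39 was 136 CPM in Q84 female 1, below the 173 to 188 CPM of the other Q84 females. Rpl3l was 2.62 CPM in the same library, which was the highest Q84 female in skeletal muscle markers. Rpl41 was 467 CPM in Q84 female 3, the library with the highest level of ribosomal protein genes as a whole, against 352 to 378 CPM in the others.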

How the results depend on the processing

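Of 1182 values recomputed under the alternatives, 1126 kept their direction and their side of the threshold or moved by less than the spread between libraries. Members called over 10 libraries numbered 2 with protein-coding transcripts only, and 0 to 1 when a library was left out. Among females DESeq2 called 2, the 10-library choice 1, and leaving out a library 0 to 2. The shares of all genes called under these alternatives are not given here, so the counts have no background beside them. With the replicate number as a block 0 members were called in each comparison, Rpl28 included (adjusted p 0.125, edgeR); the block is no pairing, since deviations of same-numbered libraries correlated from -0.22 to 0.33. Differences that changed sign were small or tied to a library. With each library left out over 12 libraries, Rps27l ran from -0.0095 to 0.18 and Rpl3l from -0.081 to 2.05. Over 10 libraries Rps27l ran from -0.082 to 0.043 and was 0.042 with length-scaled TPM, which put Rpl5 at -0.016. Among females Rps2 ran from -0.10 to 0.015 and Rplp0 from -0.091 to 0.019, and in males against females Rpl3l ran from -0.36 to 1.91. The share difference of Rps24-202 ran from 4.87 to 6.95 points over 10 libraries (adjusted p 0.0238 to 0.0686, exact permutation test). Among females it ran from 2.58, without WT female 3, to 5.28, and was 5.17 without both doubted libraries. With any library left out among females, adjusted p rose above 0.05, to between 0.0571 and 0.114 (exact permutation test). Fewer libraries also raise the smallest p the design allows. Rps24-205 ran from -0.015 to 1.78 points over 12 libraries. By CPM 18 members were among the 500 highest genes, with copies added the median was 767 TPM, and without mitochondrial counts the mean share of counts was 2.12% in place of 1.92%. The addition of all similar copies and the Rps24 shares without doubted libraries were chosen after seeing the data. The cause of these shifts was not tested. Reads shared with copies, the single Q84 male and the 3 WT females limit these values; the effect of depth was not tested.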
